A study of Mus musculus with 12 samples.

Results

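The MYC and MXD network is a small set of helix-loop-helix leucine zipper transcription factors that share the partner MAX. Here 10 of its genes were examined among the 46103 genes of 12 RNA-seq libraries: Myc, Mycn and Mycl (the MYC family), Max, Mxd1, Mxd3, Mxd4, Mxi1 and Mnt (partners of MAX that oppose MYC) and Mlx (a relative of MAX). They were chosen by name as a network, with 2 of their readouts already known from these libraries, namely the Mycn difference between the populations and the Mxd1 difference of IMDP against DP cells. The Mycn population differences, the Mxd1 differences of IMDP against DP cells and over both populations, and the interaction values of both genes are therefore given as descriptions with no test. Other differences of Mycn and Mxd1 were tested but share libraries with these and are not independent of the choice. Each library held RNA of 100 sorted leukemic cells from the bone marrow and spleen of CML-like mice on the C57BL/6 strain. To make these mice, bone marrow of 5FU-treated G0M mice was infected with an MSCV retrovirus carrying human BCR-ABL1 and GFP. The infected cells were given to lethally irradiated wild-type C57BL/6 recipients with supporting normal marrow. G0M is a Venus-tagged mutant p27 that lights up cells in the G0 phase, carried on 1 Rosa26 allele and switched on by Vav1-Cre in blood cells, so all 12 libraries carried it. All cells were BCR-ABL1+ and in the LSK gate (lineage-negative, Sca-1-positive, c-Kit-positive; KSL in the labels), and all were CD27+. DP cells were G0M+ and SP cells were G0M- from vehicle-treated mice, and IMDP and IMSP cells were the G0M+ and G0M- cells of mice given imatinib, a BCR-ABL1 kinase inhibitor, daily by oral gavage. There were 3 libraries of each group, and the mice were young adult females. The labels do not say whether replicates came from separate mice, so p-values measure the spread between these libraries only.

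MYC and MAX bind DNA as a pair at E-box sequences and recruit coactivators, which raises the expression of genes for ribosome production, metabolism and cell growth. The MXD proteins, MXI1 and MNT compete for MAX and the same sequences, and recruit the SIN3 and histone deacetylase corepressors. In blood formation Myc and Mycn are both used by stem and progenitor cells, and Mxd1 is known as a gene switched on during myeloid differentiation, while Mxd3 stands apart as the MXD gene expressed in S phase.

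The promoters of 4 members whose RNA differed most between the groups are shown first. They are the 250 bases before the annotated start, 5′ to 3′ on the gene's strand, which is the minus strand for all 4, from RefSeq (GRCm38.p6). The windows lie at chr6:86669160-86669409 for Mxd1, chr13:55329732-55329981 for Mxd3, chr5:34187711-34187960 for Mxd4 and chr12:12941837-12942086 for Mycn. Capitals mark an E-box (CACGTG) in Mxd4 and an E2F-type sequence (TTTGGCGC), which is present 2 times, in Mycn.

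Mxd1: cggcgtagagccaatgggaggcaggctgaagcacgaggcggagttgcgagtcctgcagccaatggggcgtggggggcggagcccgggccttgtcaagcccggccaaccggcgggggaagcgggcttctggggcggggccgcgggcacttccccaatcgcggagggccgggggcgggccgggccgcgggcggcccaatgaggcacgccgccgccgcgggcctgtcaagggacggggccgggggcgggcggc
Mxd3: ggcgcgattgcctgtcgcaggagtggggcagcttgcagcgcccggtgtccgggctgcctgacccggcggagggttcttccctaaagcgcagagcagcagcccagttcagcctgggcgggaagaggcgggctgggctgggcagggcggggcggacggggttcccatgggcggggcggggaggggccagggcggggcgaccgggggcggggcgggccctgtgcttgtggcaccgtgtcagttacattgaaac
Mxd4: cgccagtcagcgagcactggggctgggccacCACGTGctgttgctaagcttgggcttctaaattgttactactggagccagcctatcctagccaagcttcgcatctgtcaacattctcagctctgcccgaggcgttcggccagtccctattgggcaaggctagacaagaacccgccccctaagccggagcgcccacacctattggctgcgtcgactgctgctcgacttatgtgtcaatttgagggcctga
Mycn: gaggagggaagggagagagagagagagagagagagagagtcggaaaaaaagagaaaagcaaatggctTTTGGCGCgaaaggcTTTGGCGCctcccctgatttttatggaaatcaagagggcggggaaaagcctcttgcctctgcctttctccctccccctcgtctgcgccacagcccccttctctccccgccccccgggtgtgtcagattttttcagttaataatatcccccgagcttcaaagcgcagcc

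Promoter windows were found for 9 of the 10 members, all but Myc, as 300 bases that also take in the first 50 after the start, and Mxi1 had 3 of them. They were searched on both strands for CACGTG, its variant CACGCG, the E2F-type sequences TTTCCCGC and TTTGGCGC, and the STAT sequence TTCNNNGAA. CACGTG was present in the windows of Max, Mlx, Mnt and Mxd4, beginning at positions -3, -40, -123 and -219 from the start. It was present in 7.15% of all 32851 promoter windows. TTTGGCGC began at positions -183 and -168 of the Mycn window and did not overlap, and 0.514% of all windows held it. CACGCG was present at -20 of Mycl and in 9.27% of all windows. TTTCCCGC (1.07% of all windows) and TTCNNNGAA (8.3%) were not in the members' windows, and Mxd1, Mxd3 and Mxi1 held none of the 5 sequences. These are matches of letters in the reference and say nothing of binding in these cells.

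The deposited expression values are RPKM, reads per kb of transcript and per M reads, and the reads behind them were recovered from the steps of the low values. Totals lay between 11.37 and 20.57 M reads per library, so that 1 read on 1 kb of transcript equalled 0.0486 to 0.088 RPKM. Correlations between replicates ran from 0.889 to 0.954 across genes. The labelled populations were visible in Mki67, a gene of cycling cells, with 10.9 to 21.2 RPKM in DP, 50.8 to 57.7 in the SP, 7.18 to 10.1 in the IMDP and 54.5 to 70.6 in the IMSP cells. Kit (16.8 to 39.8 RPKM), Ly6a, which encodes Sca-1 (3.12 to 20.8), and Cd27 (12.2 to 21.4) were present in all 12 libraries. Markers of other blood cells moved with the populations. The summed RPKM of 8 mast cell and basophil genes was 62.4 to 279 in the DP and 13.1 to 180 in the IMDP against 7.31 to 15 in the SP and 5.59 to 18.6 in the IMSP cells, and the mast cell protease gene Cma1 was at 0 in all SP and IMSP libraries. The sum of 7 macrophage genes was 2.17 to 12.4 in the DP and 7.0 to 10.9 in the IMDP against 0.27 to 2.72 in the SP and 0.287 to 1.75 in the IMSP cells, where C1qa was at 0. The sum of 11 neutrophil and monocyte genes was 97.2 to 1450 in the DP and 116 to 338 in the IMDP against 410 to 2660 in the SP and 560 to 2270 in the IMSP cells. The sum of 8 erythroid genes was 205 to 264 in DP libraries and 58.4 to 381 in IMDP libraries, against 55.1 to 146 in SP libraries and 10.7 to 72.9 in IMSP libraries, and that of 6 megakaryocyte genes ran from 6.91 to 125 over all libraries with overlap between all groups. The 5 B cell genes summed to at most 4.13 RPKM and the 4 T cell genes to at most 2.7. The part of these cells in the results on the members was not tested. The library numbers in the labels ran from 1 to 6 for imatinib and from 7 to 12 for vehicle, so treatment and library order cannot be told apart. Each 2 neighbouring numbers held 1 G0M+ and 1 G0M- library of the same treatment, which gave 6 pairs.

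**Figure D1:**
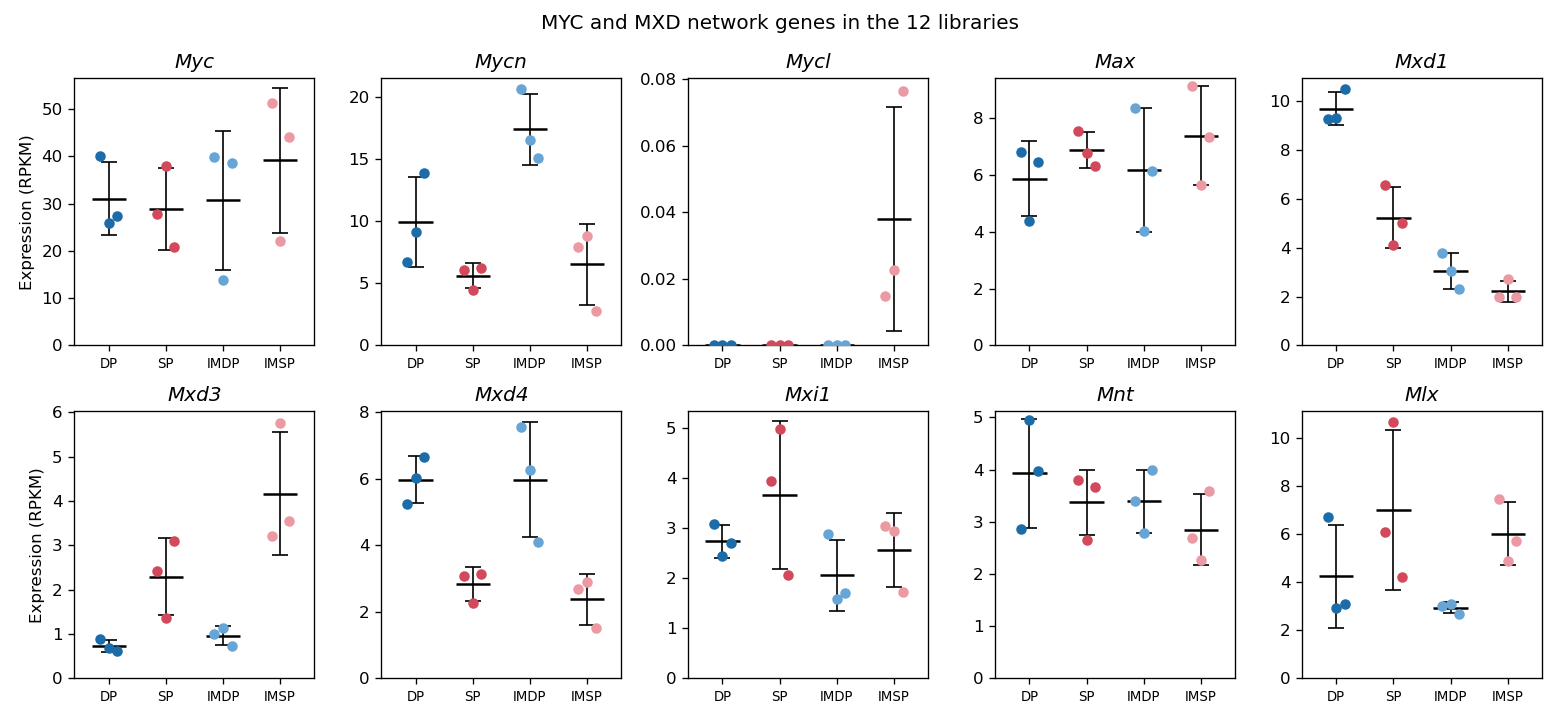
Expression in RPKM (vertical axes, each from 0 and on its own linear scale) of the 10 members in the 3 libraries of each group (points), with the mean and the SD (bars). Mxd4 is near 6 RPKM in DP and IMDP and at most 3.15 in SP and IMSP cells, Mxd3 shows the opposite order, and Mxd1 descends from DP over SP and IMDP to IMSP cells.

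Myc was the member with the highest RPKM in 11 of the 12 libraries, and its level did not separate the groups. Myc (chromosome 15, 61985391 to 61990374, GRCm38) had 40.0, 25.9 and 27.3 RPKM in the DP, 27.8, 38.0 and 20.8 in the SP, 39.8, 13.8 and 38.5 in the IMDP and 51.4, 22.0 and 44.1 in the IMSP libraries. The group means (SD, n = 3) were 31.1 ± 7.74, 28.9 ± 8.63, 30.7 ± 14.6 and 39.2 ± 15.3 RPKM, and every neighbouring pair of groups in that order of levels overlapped. The exception among libraries was IMDP replicate 2, where Mycn (16.5 RPKM) exceeded Myc. On the log2(RPKM + 0.1) scale, Myc differed by 0.12 ± 0.42 (SE) in DP against SP cells, by -0.41 ± 0.42 in the IMDP against IMSP cells (adjusted p = 0.486), and by -0.14 ± 0.29 over both treatments (adjusted p = 0.735). Imatinib-treated against vehicle-treated cells gave 0.13 ± 0.29 (adjusted p = 0.858). Within the pairs of neighbouring libraries, Myc was lower in the G0M+ library in all 3 imatinib pairs (0.627 to 0.874 of the G0M- level) and higher in 2 of 3 vehicle pairs. The IMDP against IMSP value became 0.09 without IMDP replicate 2, and the value over both treatments became 0.1 without the same library. With the library pairs as a block, -0.41 passed the threshold (adjusted p = 0.0195). As in all comparisons of such bulk samples, fewer cells expressing a gene and less RNA per cell cannot be told apart.

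Mycn (chromosome 12, 12936093 to 12941914), the relative of Myc that can stand in for it in stem cells, was highest in IMDP cells. It had 6.74, 9.11 and 13.9 RPKM in the DP, 6.10, 4.43 and 6.24 in the SP, 20.6, 16.5 and 15.1 in the IMDP and 7.89, 8.84 and 2.80 in the IMSP libraries. All IMDP libraries lay above all DP libraries, while the DP and IMSP ranges and the IMSP and SP ranges overlapped. The population difference, known before and given with no test, was 0.77 ± 0.38 (log2, SE) under vehicle and 1.55 ± 0.38 under imatinib, and Mycn was higher in the G0M+ library in 6 of 6 pairs, by 1.46 to 5.38 times. The treatment differences were tested. Mycn differed by 0.86 ± 0.38 in the IMDP against DP cells (adjusted p = 0.232, not past the threshold although the libraries did not overlap) and by 0.07 ± 0.38 in the IMSP against SP cells (adjusted p = 0.98). Mycn made up 28.1% to 54.5% of the summed RPKM of the MYC family in IMDP libraries and 5.97% to 28.6% in IMSP libraries, with 14.4% to 33.7% in DP and 10.4% to 23.0% in SP libraries.

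Mycl (chromosome 4, 122995652 to 123002485), the third family member, was close to absent at this depth. It had no read in 9 libraries and 1, 1 and 4 reads in the IMSP libraries, where its RPKM was 0.0147, 0.0227 and 0.0765. A count of 0 allowed up to 3 reads, or 0.0376 to 0.0599 RPKM, in those 9 libraries. Mycl did not pass the filter of 1 RPKM in 3 libraries, and an exact permutation test gave p = 0.1 (two-sided, 400 permutations) for both the population and the treatment, the smallest p that values with these ties allow.

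Max (chromosome 12, 76937269 to 76962201), the partner that MYC and its antagonists both need, showed a narrow range of 4.01 to 9.14 RPKM over the 12 libraries. It had 6.80, 4.38 and 6.44 RPKM in the DP, 7.55, 6.76 and 6.30 in the SP, 8.36, 4.01 and 6.12 in the IMDP and 9.14, 5.65 and 7.35 in the IMSP libraries, and all neighbouring groups overlapped. Its population difference over both treatments was -0.27 ± 0.19 (adjusted p = 0.297), with the G0M+ library lower in 5 of 6 pairs. With the library pairs as a block the same -0.27 had an adjusted p of 0.0452.

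Mlx (chromosome 11, 101087277 to 101092207) encodes the MAX-like protein that pairs with MXD1, MXD4 and MNT as well as with the glucose-responsive factors MLXIP and MLXIPL. It had 6.72, 2.93 and 3.10 RPKM in the DP, 6.11, 10.7 and 4.22 in the SP, 3.03, 3.11 and 2.70 in the IMDP and 7.49, 4.89 and 5.72 in the IMSP libraries. The IMDP libraries lay below all IMSP libraries, whereas DP replicate 1 overlapped with SP cells. Mlx was lower in G0M+ cells over both treatments by 0.85 on the log2 scale (log2 fold change -0.85 ± 0.25, adjusted p = 0.0267), with 0.405 to 0.694 of the G0M- level in 6 of 6 pairs. It did not pass within vehicle (-0.71 ± 0.35, adjusted p = 0.411) or within imatinib (-0.99 ± 0.35, adjusted p = 0.0555). With the replicate number as a block, which pairs IMDP with IMSP libraries, the imatinib value passed (adjusted p = 0.0472). It passed in 4 of 10 alternatives that kept all libraries (lowest adjusted p = 0.00121), among them the library pairs as a block. Of 12 fits that left out 1 library, 3 passed (lowest adjusted p = 0.0266). The vehicle value passed in 1 of 10 alternatives, the library pairs as a block (adjusted p = 0.0238). The call over both treatments was lost without DP replicate 2 (adjusted p = 0.0656), DP replicate 3 (0.0706), SP replicate 2 (0.0578), IMDP replicate 3 (0.0545) or IMSP replicate 1 (0.0712), and with scaling to the median (0.0517). Of the exon bases of Mlx, 385 of 1999 are shared with Psmc3ip on the opposite strand. Strand was not stated for the counting, so reads there cannot be told apart. Psmc3ip itself was at 2.57 to 5.59 RPKM and differed by -0.29 ± 0.21 over both treatments (adjusted p = 0.321).

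Mxd1, an antagonist of MYC, had its highest mean level in DP and its lowest in IMSP cells. Mxd1 (chromosome 6, 86647042 to 86669161) had 9.28, 9.32 and 10.5 RPKM in the DP, 6.56, 4.10 and 5.03 in the SP, 3.78, 3.06 and 2.32 in the IMDP and 1.97, 2.71 and 1.97 in the IMSP libraries. The order of the levels was DP (9.69 ± 0.685), SP (5.23 ± 1.24), IMDP (3.06 ± 0.73) and IMSP (2.22 ± 0.432), in which only IMDP and IMSP overlapped. The treatment difference, in part known before, was -1.66 ± 0.21 in the IMDP against DP cells and -1.43 ± 0.15 over both populations, with the 6 imatinib libraries (1.97 to 3.78 RPKM) below the 6 vehicle libraries (4.10 to 10.5). In G0M- cells, where it was not used for the choice, Mxd1 differed by -1.19 ± 0.21 in the IMSP against SP cells with no overlap, which missed the threshold over all genes (adjusted p = 0.234). The population difference passed over both treatments (0.67 ± 0.15, adjusted p = 0.00942; 1.13 to 2.26 times higher in 6 of 6 pairs). It missed within vehicle (0.90 ± 0.21, adjusted p = 0.0536) and within imatinib (0.44 ± 0.21, adjusted p = 0.152). The vehicle value passed with limma-voom on the recovered reads (adjusted p = 0.0251), a pseudocount of 1 (0.80, adjusted p = 0.0284), scaling to the median (0.94, adjusted p = 0.0206) or the library pairs as a block (0.0143), and without SP replicate 1 (adjusted p = 0.0471), IMDP replicate 1 (0.0404), IMDP replicate 3 (0.0387) or IMSP replicate 2 (0.0456). The imatinib value passed with scaling to the median (0.71, adjusted p = 0.0322).

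Mxd4 was higher in G0M+ cells and did not pass the test between treatments. Mxd4 (chromosome 5, 34173883 to 34187720), an MXD antagonist of MYC, had 5.25, 6.02 and 6.65 RPKM in the DP, 3.09, 2.25 and 3.15 in the SP, 7.55, 6.27 and 4.11 in the IMDP and 2.70, 2.91 and 1.51 in the IMSP libraries. The 6 G0M+ libraries (4.11 to 7.55) lay above the 6 G0M- libraries (1.51 to 3.15). Over both treatments Mxd4 rose in G0M+ cells by 1.18 ± 0.19 on the log2 scale (adjusted p = 0.00155), and by 1.31 ± 0.27 in the IMDP against IMSP cells (adjusted p = 0.00683). In DP against SP cells the value was 1.06 ± 0.27 (adjusted p = 0.0744), which passed with scaling to the median (1.10, adjusted p = 0.0333), with only these groups in the fit (0.0409), with the library pairs as a block (0.00285), and without IMDP replicate 3 (0.0477) or IMSP replicate 3 (0.0315), since all groups share 1 estimate of the spread. Mxd4 was 1.91 to 2.79 times higher in the G0M+ library of each of the 6 pairs. Relative to the median of all genes tested, which was -0.25 in IMDP against IMSP cells and -0.13 over both treatments, the Mxd4 differences were 1.56 and 1.32. The treatment differences were -0.04 ± 0.27 in the IMDP against DP cells and -0.28 ± 0.27 in the IMSP against SP cells. These values rested on 24 to 116 reads per library.

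Mxd3 had its higher levels in G0M- cells. Mxd3 (chromosome 13, 55325168 to 55329823) had 0.885, 0.689 and 0.624 RPKM in the DP, 2.43, 1.36 and 3.09 in the SP, 1.01, 1.14 and 0.727 in the IMDP and 3.20, 5.76 and 3.54 in the IMSP libraries. All 6 G0M+ libraries (0.624 to 1.14) lay below all 6 G0M- libraries (1.36 to 5.76), on 12 to 85 reads per library. Mxd3 reached 1 RPKM in 6 of 6 G0M- but 2 of 6 G0M+ libraries, so it passed the filter through the populations in which it was high. A call with the filter is therefore not free of this selection. Its population differences on the log2 scale were -1.72 ± 0.22 over both treatments, -1.98 ± 0.32 in IMDP against IMSP cells and -1.46 ± 0.32 in DP against SP cells, given as values. A fit of 16776 genes without the filter, which avoids this selection, gave adjusted p values of 0.00106, 0.00465 and 0.0735, so that the DP against SP value did not pass there. With the filter the DP against SP value had an adjusted p of 0.0311, which rests on this selection and is not used as support. That call was lost with limma-voom (0.176), a pseudocount of 1 (0.0571), only these groups in the fit (0.0884) or the replicate number as a block (0.0676). It was also lost without DP replicate 2 (0.113), DP replicate 3 (0.132), SP replicate 1 (0.128) or SP replicate 3 (0.133). IMSP libraries lay above SP libraries (0.86 ± 0.32), which missed the threshold (adjusted p = 0.501). Mxd3 shares 105 of its 2369 exon bases with Prelid1 on the opposite strand. Prelid1, a mitochondrial protein gene, was at 45.5 to 75.9 RPKM in DP, 63.3 to 102 in the SP, 30.7 to 36.5 in the IMDP and 69.5 to 86.3 in the IMSP cells and differed by -0.80 ± 0.15 over both treatments (adjusted p = 0.00412), and how many Mxd3 reads came from it was not tested.

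Mxi1 and Mnt did not separate the groups. Mxi1 (chromosome 19, 53310518 to 53375810), also called MXD2, had 3.09, 2.44 and 2.70 RPKM in the DP, 3.94, 4.99 and 2.06 in the SP, 2.88, 1.59 and 1.71 in the IMDP and 3.04, 2.95 and 1.72 in the IMSP libraries. Its population difference was -0.32 ± 0.23 (adjusted p = 0.32) and its treatment difference -0.44 ± 0.23 (adjusted p = 0.338). Mnt (chromosome 11, 74830920 to 74845725), the broadly expressed antagonist, had 2.86, 4.95 and 3.98 RPKM in the DP, 3.81, 2.66 and 3.66 in the SP, 3.39, 2.78 and 4.00 in the IMDP and 2.69, 2.26 and 3.59 in the IMSP libraries. It was higher in the G0M+ library of 6 of 6 pairs, by 1.04 to 1.35 times, yet its difference of 0.23 ± 0.17 did not pass (adjusted p = 0.336). All neighbouring groups of both genes overlapped.

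**Figure D2:**
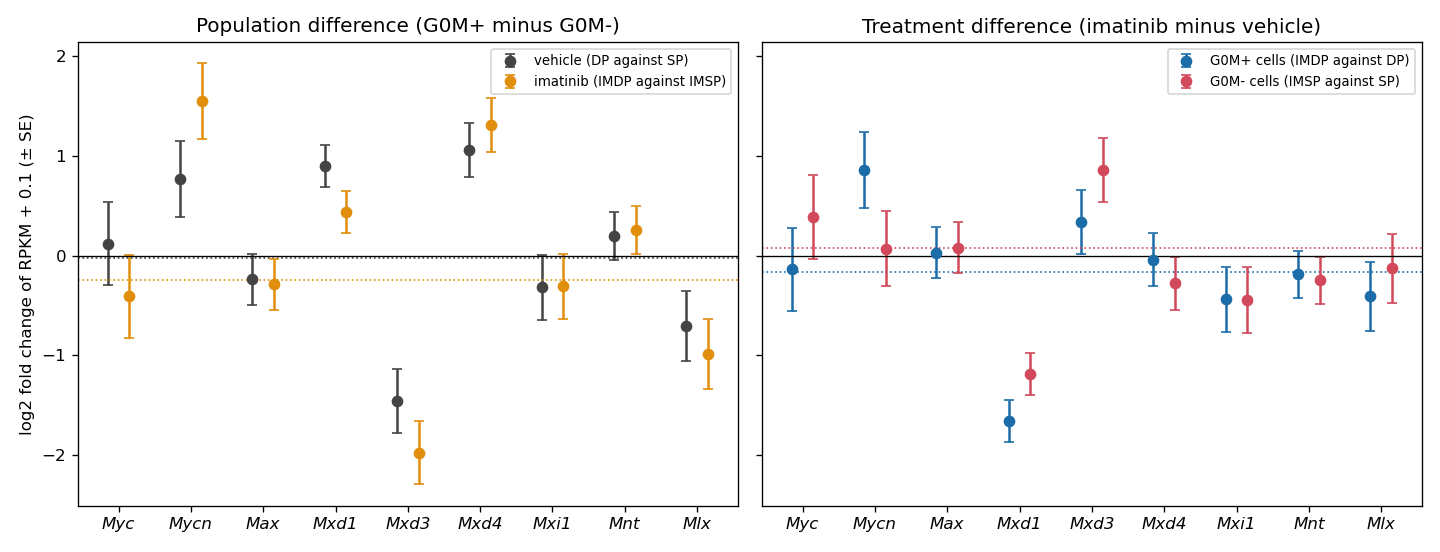
Log2 fold changes on the log2(RPKM + 0.1) scale with SE for the 9 members tested, between populations under vehicle and imatinib (left) and between treatments in G0M+ and G0M- cells (right). Dotted lines give the median of all 10072 genes in each comparison. Mxd4 and Mxd3 lie on opposite sides in the left panel, and Mxd1 has the lowest values in the right panel.

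Set against all genes, members were called at an adjusted p under 0.05 as follows, leaving out the known values and Mxd3. In DP against SP cells limma called 0 of 7 members (2 at an unadjusted p under 0.05, and 1, Mxd1, by limma-voom), beside 2.26% of the 10072 genes tested. In IMDP against IMSP cells it was 1 of 7, Mxd4, beside 25.6% of genes. In that comparison the replicate number as a block also called Mlx lower, and the library pairs as a block Mlx and Myc lower. Scaling to the median also called Mxd1 higher, beside 647 higher and 940 lower of all genes. Over both treatments 3 of 7 were called, Mxd1 and Mxd4 higher and Mlx lower, beside 26.3%, and with scaling to the median Mxd1 and Mxd4. Over both treatments 536 of all the called genes were higher and 2112 lower in G0M+ cells, a split that became 1131 and 1248 with scaling to the median. In DP against SP cells 0 members were called with the replicate number as a block (2 unadjusted), while the library pairs as a block called 3, Mxd1 and Mxd4 higher and Mlx lower.

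Between treatments no member passed the threshold, leaving Mxd1 aside where it was known. The counts that follow include Mxd3. Its unadjusted limma p was under 0.05 in IMSP against SP cells (0.0193) and over both populations (0.0206). In IMDP against DP cells limma called 0 of 8 members (1 at an unadjusted p under 0.05 and 0 by limma-voom) beside 0.367% of all genes, and in IMSP against SP cells 0 of 9 (2 unadjusted and 0 by limma-voom) beside 0% of all genes. Over both populations 0 of 8 were called (1 unadjusted and 0 by limma-voom) beside 0.854%. The interaction, which asks whether the population difference depends on the treatment, called 0 of 7 members (0 unadjusted and 0 by limma-voom) and 0% of all genes. Its values for the 2 known members were 0.78 ± 0.54 for Mycn and -0.47 ± 0.30 for Mxd1. The comparisons of one group with 2 others share its libraries and are not independent.

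**Figure D3:**
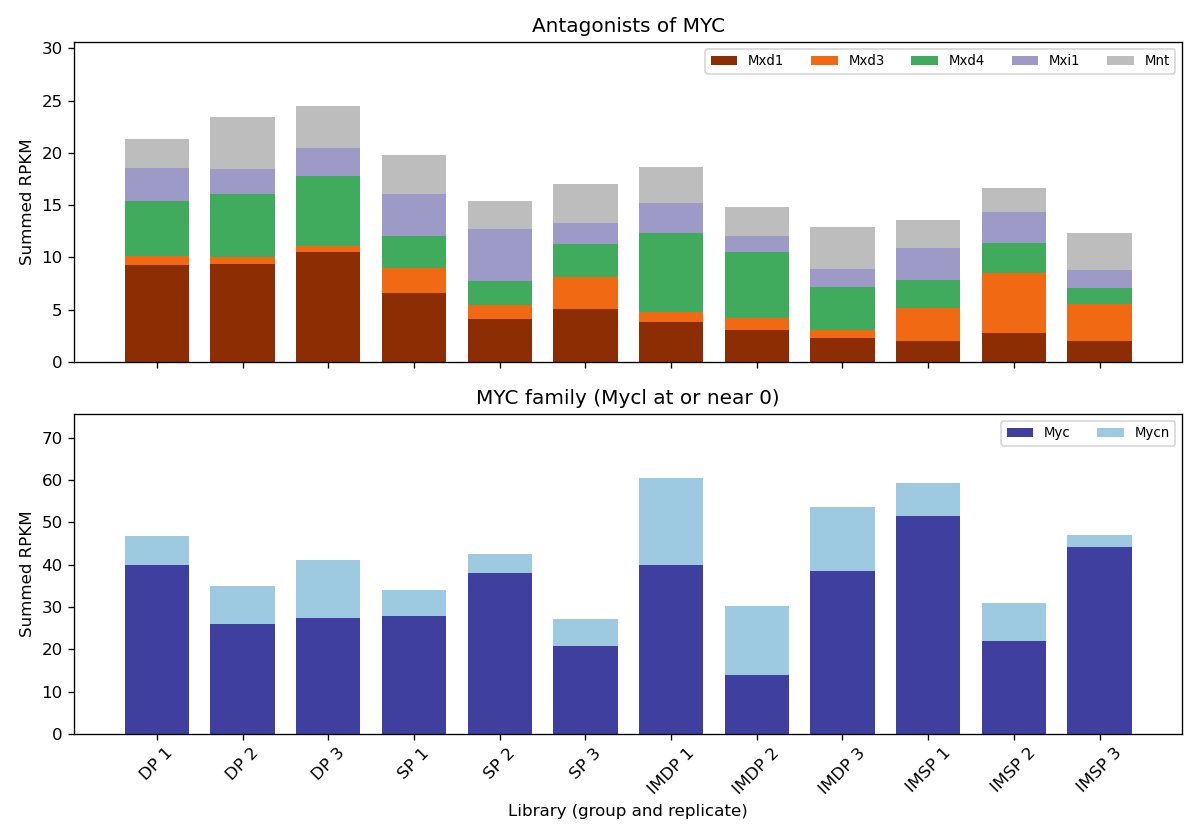
Summed RPKM per library of the 5 antagonists (top) and of Myc and Mycn (bottom), on linear axes from 0. Mxd1 forms the largest share of the antagonists in the DP libraries, Mxd4 in the IMDP libraries, and Mxd3 in IMSP replicates 1 and 2.

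The antagonists differed in make-up between the groups. RPKM is scaled by transcript length, so levels were added across genes, as a description that carries no test. Such sums and shares depend on the lengths used for the RPKM. The lengths implied by the recovered reads differed from the annotated exon bases, with 1179 against 8483 for Mxd4, 1299 against 2369 for Mxd3 and 6505 against 4627 for Mnt. The summed RPKM of Mxd1, Mxd3, Mxd4, Mxi1 and Mnt was 23.1 ± 1.53 in the DP, 17.4 ± 2.23 in the SP, 15.4 ± 2.90 in the IMDP and 14.2 ± 2.21 in the IMSP cells (SD, n = 3). Mxd1 made up 39.8% to 43.4% of it in DP, 26.7% to 33.1% in SP, 18.1% to 20.6% in IMDP and 14.5% to 16.4% in IMSP libraries. The Mxd4 share was 24.6% to 27.2% in DP and 31.9% to 42.3% in IMDP libraries but 14.7% to 18.5% in SP and 12.2% to 19.9% in IMSP libraries. The Mxd3 share was 2.56% to 4.14% in DP and 5.44% to 7.67% in IMDP libraries but 8.87% to 18.2% in SP and 23.5% to 34.7% in IMSP libraries. By group means Mxd1 led in DP and SP, Mxd4 in IMDP and Mxd3 in IMSP cells, although Mxi1 exceeded Mxd1 in SP replicate 2 (4.99 and 4.10 RPKM) and Mnt was level with Mxd3 in IMSP replicate 3 (3.59 and 3.54 RPKM). The ratio of the antagonist sum to the MYC family sum was 0.573 ± 0.107 in the DP, 0.525 ± 0.143 in the SP, 0.346 ± 0.129 in the IMDP and 0.343 ± 0.169 in the IMSP cells, and the ranges of vehicle and imatinib libraries overlapped.

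Over both treatments, 36 of 59 MYC target genes were lower in G0M+ cells and 0 were higher, beside 26.3% of all genes called in either direction. Their median log2 difference was -0.54 beside -0.13 for all genes tested. In IMDP against IMSP cells 39 were lower, beside 25.6% of all genes called. In DP against SP cells 0 passed (4 at an unadjusted p under 0.05), beside 2.26%. Scaling to the median left 18 lower in IMDP against IMSP cells. With the library pairs as a block, 54 were lower and 1 higher there, and 8 were lower in DP against SP cells. That block gave 53 lower and 1 higher over both treatments, where scaling to the median gave 23 lower and 1 higher. Leaving out 1 library at a time left 24 (without DP replicate 3 or IMSP replicate 1) to 46 called over both treatments. The 4 with the smallest adjusted p were Tcof1 and Noc4l, which serve ribosome production, Shmt2, an enzyme of mitochondrial folate metabolism, and Phb2, a mitochondrial prohibitin. Tcof1 differed by -0.70 ± 0.13 (adjusted p = 0.00322), Noc4l by -0.71 ± 0.13 (0.00365), Shmt2 by -0.80 ± 0.16 (0.0055) and Phb2 by -0.65 ± 0.13 (0.00583). The list of S, G2 and M phase genes moved more by its median of -2.89, with 20 of 27 lower. Examples are Mki67 by -2.42 ± 0.16 (adjusted p = 6.12e-06) and Top2a by -2.67 ± 0.22 (1.8e-05). Not all its S phase genes did so. Mcm2 to Mcm7 and Pcna, named after their values were seen, did not pass, with values from 0.08 (Mcm2) to -0.35 (Pcna). Rrm2 (-1.21) and Tyms (-0.80) passed. How much of the difference in MYC target genes went with the cell cycle was not tested.

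**Figure D4:**
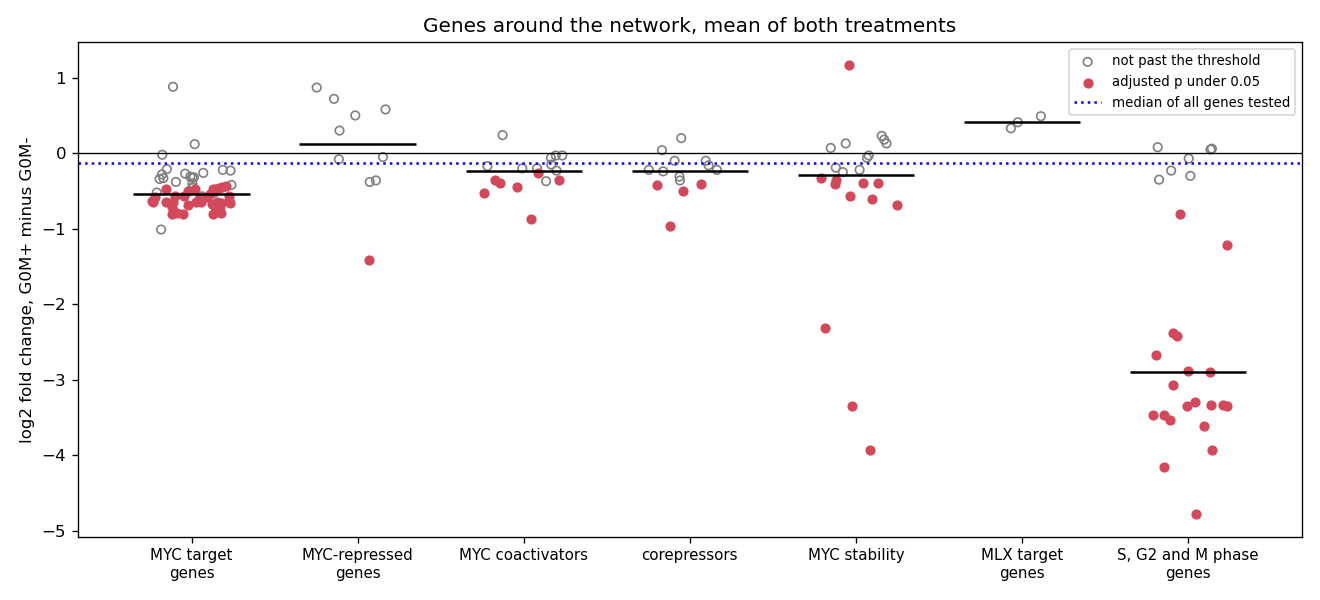
Log2 fold change of G0M+ against G0M- cells over both treatments (vertical axis) for the tested genes of 7 lists around the network, with filled points for an adjusted p under 0.05, a black line for each list's median and a dotted line for the median of all genes tested. The MYC target genes lie mostly between 0 and -1 and the S, G2 and M phase genes mostly below -2.

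Of 14 corepressor genes, 4 were lower in G0M+ cells, beside 26.3% of all genes. Scaling to the median gave 1 higher and 4 lower, the library pairs as a block 7 lower, and limma-voom called 6. The 4 were Sap30 (-0.96 ± 0.20, adjusted p = 0.00677), Suds3 (-0.50 ± 0.13, 0.0147), Rbbp4 (-0.42 ± 0.11, 0.0155) and Rbbp7 (-0.41 ± 0.11, 0.0188). Sin3a (-0.22, adjusted p = 0.147) and Sin3b (0.04, 0.81), named after their values were seen, did not pass. Of 17 coactivator genes 7 were lower, led by the helicase gene Ruvbl2 (-0.87 ± 0.17, adjusted p = 0.0055), the remodeller gene Smarca4 (-0.39 ± 0.08, 0.00571), the acetyltransferase gene Kat2a (-0.36 ± 0.08, 0.0104) and Actl6a (-0.53 ± 0.13, 0.0118), and with scaling to the median 3 were. Among 22 tested genes that set the stability of MYC protein, 11 were lower and 1, the kinase gene Pim2, was higher (1.17, adjusted p = 0.0145). Pim2 was named after its value was seen. The lower ones with the smallest adjusted p were the mitotic kinase genes Aurka (-3.35 ± 0.27, 1.8e-05) and Plk1 (-3.93 ± 0.35, 2.93e-05), both also counted among the cell cycle genes, the phosphatase inhibitor gene Cip2a under its older name C330027C09Rik (-2.31 ± 0.23, 4.44e-05) and the ubiquitin ligase gene Stub1 (-0.69 ± 0.09, 0.000333). With scaling to the median 7 genes of this list passed, 2 higher and 5 lower, and 7 passed without DP replicate 2, IMDP replicate 2 or IMSP replicate 1.

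Of 10 tested genes that MYC represses, only Cebpa, a myeloid factor gene, was called, and it was lower in G0M+ cells (-1.41 ± 0.44, adjusted p = 0.036), with 0 called after scaling to the median and 4 higher and 3 lower with the library pairs as a block. The arrestin-like and glucose-responsive targets of MLX did not pass (0 of 3 by limma and limma-voom, 1 unadjusted; 1 higher with scaling to the median and 2 higher with the library pairs as a block), with Txnip at 0.49 ± 0.20 (adjusted p = 0.0882). The network partners Mga (0.06 ± 0.10, adjusted p = 0.689) and Mlxip (0.06 ± 0.11, 0.705) did not pass either, and Mlxipl was below the filter. Between treatments, limma and limma-voom called 0 genes in these 8 lists over both populations, where 26 of 154 entries had an unadjusted p under 0.05. The smallest adjusted p values were those of Gadd45b (-1.33 ± 0.30, adjusted p = 0.0574), a stress gene of the MYC-repressed list, Klf10 (-1.26 ± 0.30, 0.0699) and the cyclin gene Ccnb2 (-1.32 ± 0.32, 0.0699). The polyamine enzyme gene Odc1, a classical MYC target, was at 83.9, 78.5, 34.3 and 65.3 RPKM on average in DP, SP, IMDP and IMSP cells, and its treatment difference of -0.75 ± 0.18 missed the threshold (adjusted p = 0.0707). In IMDP against DP cells 1 entry was called, Ccnb2 (-2.50 ± 0.45, adjusted p = 0.0468), and limma-voom and scaling to the median each called 0.

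The genes with the pattern nearest to a member were found from the root mean square difference of centred log2 values over the 12 libraries. For Myc they were Gm1966, Gnl3 and Tma16 (0.21, 0.21 and 0.22, against a median of 0.56 over all genes tested). Gnl3, a nucleolar GTPase gene, is itself on the MYC target list. For Mycn they were Slc25a27, Il27ra and Sdsl (0.22, 0.29 and 0.31, median 0.90). Il27ra, a cytokine receptor gene, had mean levels of 4.06, 2.14, 5.82 and 2.89 RPKM in DP, SP, IMDP and IMSP cells. For Mxd1 they were Sertad1, Sqstm1 and Rab4a (0.27, 0.29 and 0.32, median 0.89). Sqstm1, which encodes the autophagy adaptor p62, descended from 76.0 RPKM in DP over 39.9 in SP and 22.7 in IMDP to 18.1 in the IMSP cells, in the same order of groups as Mxd1. For Mxd4 they were Fbxl20, Fam129a and Tmc8 (0.22, 0.22 and 0.24, median 0.78), and Fbxl20 had 4.26, 1.94, 4.64 and 1.99 RPKM in the 4 groups. These genes were picked for their likeness, which is a description of these libraries.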

How the data were processed

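RNA of 100 sorted cells per library was sequenced in 12 libraries, and the authors mapped the reads to GRCm38/mm10 with CLC Genomics Workbench (methods) or HISAT2 and featureCounts (reporting summary), which differ in the sources. The deposited RPKM values, 1 per feature and library, scale reads by transcript length and library total, and the authors used edgeR for their own statistics. Whether a further normalization is part of the RPKM, and whether strand was used, is not given in the sources used here. From the RPKM, the whole reads were recovered (within 0.01 of a whole number in every library for 17711 of 17735 features above 0, 99.86%), which gave totals of 11.37 to 20.57 M reads, of which 24.2% to 34.7% fell on the listed features. PCR copies are not marked and may be among the recovered reads, so precision judged from the reads does not account for them. Numbered copies were summed, and each member had 1 feature.

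The 10072 genes that had 1 RPKM or more in 3 or more libraries were tested on log2(RPKM + 0.1) with limma 3.58.1 in R 4.3.3, with 4 group means, a variance trend and Benjamini-Hochberg adjustment over all genes, two-sided, at 0.05. Fold changes on this scale understate those of low genes. The fit was checked on simulated data. The members, gene lists and tests were chosen with earlier results of these data known. All members are named, and from each list up to 4 genes with the smallest adjusted p between populations and up to 2 between treatments, of which some are left out here. Alternatives changed the pseudocount, filter, scaling and groups fitted, left out each library, added a block or used limma-voom on the recovered reads. Deviations of same-numbered IMDP and IMSP libraries correlated by 0.43, 0.65 and 0.46 over genes, so the numbers in the titles pair these libraries. Those of DP and SP libraries correlated by -0.19, -0.30 and -0.10, while those of DP and SP libraries next to each other in library number did so by 0.50 to 0.52. Promoter sequences came from RefSeq (GRCm38.p6) and gene positions from GENCODE M21.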

Additional observations from a re-analysis of the deposited data

How the results depend on the processing

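The counts of members here include Mxd3, which passed the filter through G0M- libraries, so its calls with the filter are not used as support. The number past the threshold in DP against SP cells was 1, Mxd3, and with a pseudocount of 1 or limma-voom it was 1, Mxd1. It was 0 without the filter, 0 with a filter of 5 RPKM (which removed Mxd3), 3 with scaling to the median, 0 with the replicate block, 4 with the library-number block (the pairs of neighbouring libraries as a block), and 0 to 3 when 1 library was left out. In IMDP against IMSP cells the count of 2 became 4 with the library-number block and was 2 to 3 when 1 library was left out. The replicate block left 4 members called over both treatments. Genes that set MYC stability fell from 12 called to 7 with scaling to the median and ranged from 7 to 14 when 1 library was left out. The log2 difference of Myc over both treatments turned from -0.14 to 0.01 with scaling to the median and ranged from -0.33 to 0.1 when 1 library was left out, and that in IMDP against IMSP cells ranged from -0.78 to 0.09. The causes were not tested. Of 423 alternative values of single members with a test, 381 kept their direction and their side of the threshold, 15 no longer passed, 24 newly passed and 3, all of Myc, changed sign. The 106 alternatives of the known values, which had no test, kept their direction. Depth limits Mycl, and Mxd3 rested on at most 85 reads per library.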
